A study of Homo sapiens with 6 samples.

Results

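Basal cells of stratified and glandular epithelium are specified by a small set of transcription factors and chromatin regulators, and 9 such genes are described here: TP63, TRIM29, BMI1 and the SOX genes SOX2, SOX4, SOX9, SOX10, SOX13 and SOX15. They were chosen by gene symbol from the 56478 symbols of a read count table. The table holds 6 RNA-seq libraries of the established line BT20, from a human breast cancer of the triple negative class with basal features, grown in serum-containing medium. In 3 libraries (shControl) the cells carried a control short hairpin RNA in the vector the labels call pLK0, and in the other 3 (shCK5-22) they carried 1 hairpin against cytokeratin 5, the basal keratin encoded by KRT5, in the same vector. The labels do not say that the libraries of a group were separate cultures or clones, so the p-values rest on a spread that may be technical. The comparison asks which of these lineage genes changed their mRNA level when KRT5 was knocked down. Of the 9 genes, 5 could be tested (TP63, TRIM29, BMI1, SOX4 and SOX13), and 4 (SOX2, SOX9, SOX10 and SOX15) were listed at 0 in all 6 libraries.

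TP63 encodes p63, a transcription factor that maintains the basal layer of stratified epithelia and of the breast, and activates basal keratin, hemidesmosome and cell junction genes. TRIM29 is a tripartite motif protein abundant in basal epithelial cells, and BMI1 is a subunit of Polycomb repressive complex 1 (PRC1), which marks chromatin for silencing and sustains self-renewal. SOX proteins bind DNA through a high mobility group (HMG) box related to that of the sex-determining factor. SOX2 is a stem cell factor, SOX4 acts in progenitor and invasive cells, SOX9 in mammary progenitors, SOX10 in neural crest and basal-like mammary cells, and SOX13 and SOX15 are less studied members of other subgroups of the family.

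The coding stretch of SOX2 that the other SOX members most resemble is printed with their matching stretches. It shows how close the family is, since alike sequences could exchange reads. It is 81 bases long, lies in the part that encodes the HMG box, and was read 5′ to 3′ from GENCODE release 29 transcripts. Capitals mark the 44 bases that all 6 genes share.
SOX2: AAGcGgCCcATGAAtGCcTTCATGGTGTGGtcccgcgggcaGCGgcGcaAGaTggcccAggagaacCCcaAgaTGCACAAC
SOX15: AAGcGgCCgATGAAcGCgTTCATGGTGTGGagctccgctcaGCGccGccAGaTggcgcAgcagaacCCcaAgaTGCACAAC
SOX4: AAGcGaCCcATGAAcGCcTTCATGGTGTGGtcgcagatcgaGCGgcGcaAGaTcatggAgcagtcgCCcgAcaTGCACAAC
SOX13: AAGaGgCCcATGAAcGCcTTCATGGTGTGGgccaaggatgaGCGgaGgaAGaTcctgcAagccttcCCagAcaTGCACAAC
SOX9: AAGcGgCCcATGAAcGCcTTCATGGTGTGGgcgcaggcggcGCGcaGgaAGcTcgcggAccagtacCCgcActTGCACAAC
SOX10: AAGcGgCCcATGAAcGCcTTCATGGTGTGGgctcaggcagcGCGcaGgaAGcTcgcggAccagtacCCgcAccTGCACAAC
SOX9 and SOX10, of one subgroup, had 96.3% identical bases in this stretch, and SOX2 and SOX15 had 84.0%. SOX13 and SOX15 were the least alike pair, at 67.9%. The longest identical run between SOX9 and SOX10 transcripts was 45 bases, and no pair of the 6 genes shared a window of 50 bases. SOX4 shared 0 such windows with its relatives SOX11 and SOX12, SOX13 shared 0 with SOX5 and SOX6, TP63 shared 0 with its relative TP73, and BMI1 shared 0 with its relative PCGF2 and its pseudogene BMI1P1.

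Total counts lay between 47703937 and 65541734 per library. KRT5, the targeted gene, was measured in shControl at 230.7 (replicate 1), 246.6 (replicate 2) and 244.3 (replicate 3) CPM, which are counts scaled to library size by TMM, and in shCK5-22 at 21.05, 22.7 and 24.09 CPM in the same order, so every library matched its label. All 5 epithelial markers checked (EPCAM, CDH1, KRT8, KRT18 and KRT19) were present, with summed levels of 7829 to 8269 CPM in shControl and 7196 to 7724 CPM in shCK5-22. KRT19 (log2 fold change -0.63) and CDH1 (-0.37) were lower in shCK5-22, and EPCAM, KRT8 and KRT18 missed the threshold. Of the receptors low in triple negative cells, ERBB2 (-0.52) and ESR1 (-0.33) were lower too, and the 3 receptors with PGR summed to 132.5 to 137.9 CPM in shControl and 92.1 to 97.8 CPM in shCK5-22. KRT19, CDH1, ERBB2 and ESR1 thus fell beside the listed basal factors and p63 targets described below, and their part in those results was not tested. The 6 leukocyte markers summed to 0.92 to 1.31 CPM in shControl and 0.908 to 1.07 CPM in shCK5-22, and the 6 fibroblast markers to 31.7 to 32.8 and 27.3 to 28.2 CPM. The 4 endothelial markers summed to 23.4 to 31.3 and 19.2 to 31.2 CPM. The 5 neural crest and glial markers summed to 142 to 146.3 and 130.2 to 141 CPM, nearly all of it from MITF and ERBB3. CD68, PDGFRA and S100B were listed at 0. Their overlap with other genes, which goes with zeros in this table as described below, was not looked up, so no limit is set on them. Replicate 1 of shCK5-22 stood apart from its group: its chi-square statistic per degree of freedom was 33.7 against replicate 2 and 19.8 against replicate 3, which differed from each other by 5.08. Each tested member is therefore also given without that library.

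The zeros of 4 SOX genes followed their position in the genome. In GENCODE release 29 on GRCh38, the build the submitters name, each of the 4 lies wholly within the span of another gene of the table. SOX2 (chromosome 3, 181711924 to 181714436, plus strand, 1 exon) lies within SOX2-OT, a long noncoding RNA gene of the same strand. SOX9 (chromosome 17, 72121020 to 72126420, plus strand) lies within SOX9-AS1, on the opposite strand. SOX10 (chromosome 22, 37970686 to 37987422, minus strand) lies within POLR2F, which encodes an RNA polymerase subunit and is transcribed from the other strand. SOX15 (chromosome 17, 7588178 to 7590170, minus strand) lies within MPDU1, a gene of dolichol-linked sugar use, also on the other strand.

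The same held across the table. Of 937 protein-coding genes wholly inside the span of another gene, 918 (98.0%) were listed at 0 in all 6 libraries, against 2184 of 17970 (12.2%) that were not. The share was 97.8% of 273 genes where the enclosing gene had the same strand and 98.0% of 649 where it had the opposite strand, so strand made no visible difference. Genes that every cell uses were among them: of 79 cytosolic ribosomal protein genes 6 were listed at 0, including all 4 that lie wholly inside another gene (RPL32, RPL15, RPL35A and RPS4X). Zeros at SOX2, SOX9, SOX10 and SOX15 are therefore given only as listed at 0, with no limit on their expression, and whether BT20 cells expressed them cannot be read from these counts.

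**Figure D1:**
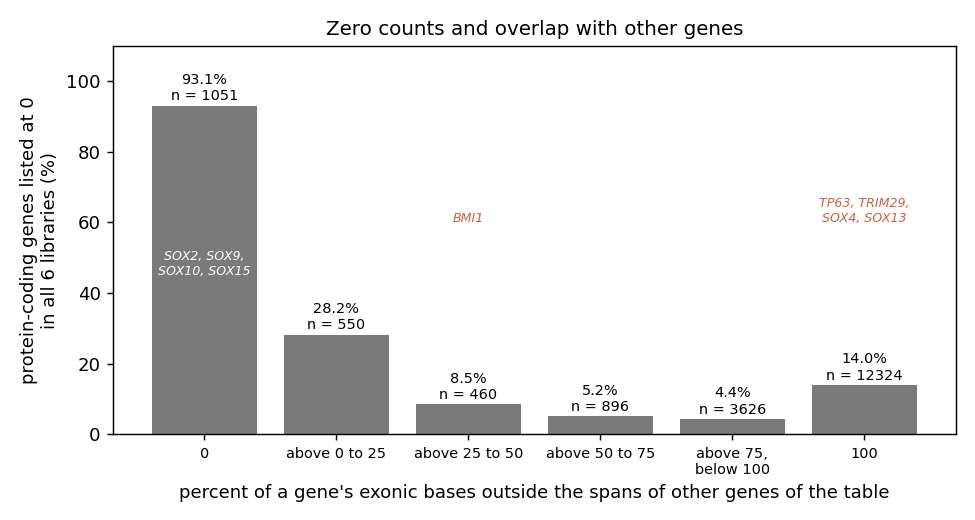
Share of protein-coding genes listed at 0 in all 6 libraries (vertical axis, percent) by the percent of their exonic bases that lie outside the spans of other genes of the table (horizontal axis), with the number of genes above each bar and the members named in their class. The share was 93.1% among genes with no such base, the class of the 4 SOX genes at 0. It was 14.0% among genes with all exonic bases outside other genes' spans, the class of TP63, TRIM29, SOX4 and SOX13.

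Of the enclosing genes, only MPDU1 was well counted. SOX2-OT had 27 to 40 counts per library, SOX9-AS1 66 to 127, POLR2F 0 to 10 and MPDU1 2315 to 3572. SOX2-OT (0.52 and 0.605 CPM in shControl and shCK5-22) and SOX9-AS1 (1.54 and 1.75 CPM) did not pass the test, with adjusted p = 0.655 and 0.542 in edgeR's quasi-likelihood test with Benjamini-Hochberg adjustment, the source of every adjusted p below unless another is named.

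Among the members with counts, 3 were lower in shCK5-22 (SOX4, TRIM29 and SOX13) and 2 did not pass the test (TP63 and BMI1). Of all 18008 genes tested, 34.2% changed at an adjusted p below 0.05, 17.4% higher and 16.8% lower, so 3 of 5 is a small count beside a high background. The groups did not overlap for those 3 genes, which was so for 45.1% of all genes.

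SOX4 (chromosome 6, 21592768 to 21598619, plus strand, 1 exon), the transcription factor of progenitor and invasive cells, changed most. In shControl it stood at 62.11, 65.75 and 60.32 CPM (replicates 1 to 3, the order used throughout), and in shCK5-22 at 45.61, 48.38 and 48.2 CPM, on 2547 to 4288 counts. Every shCK5-22 library lay below every shControl library. Group means were 62.7 ± 2.76 and 47.4 ± 1.55 CPM (SD, n = 3 each), 1.32-fold lower (log2 fold change -0.41, SE 0.0439, adjusted p = 2.68e-07). Without shCK5-22 replicate 1 the log2 fold change was -0.38 (adjusted p = 7.25e-08). CASC15, a long noncoding RNA gene that starts downstream of SOX4 on the same strand (chromosome 6, 21664772 to 22368328), was lower as well, at 3.85 ± 0.401 and 2.85 ± 0.109 CPM (log2 fold change -0.44, adjusted p = 0.013).

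TRIM29 (chromosome 11, 120111275 to 120185529, minus strand), the basal tripartite motif gene, had 118.4, 111.1 and 113.2 CPM in the shControl libraries. The shCK5-22 libraries had 100.9, 96.26 and 103.9 CPM. The lowest shControl library was above the highest shCK5-22 library. Group means were 114.3 ± 3.78 and 100.3 ± 3.83 CPM (SD, n = 3 each), 1.14-fold lower (log2 fold change -0.19, SE 0.0365, adjusted p = 0.000367). Without shCK5-22 replicate 1 the log2 fold change was -0.19 (adjusted p = 0.000168). Its neighbour OAF (chromosome 11, 120210767 to 120230332) had group means of 37.0 and 35.6 CPM (adjusted p = 0.412).

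SOX13 (chromosome 1, 204073115 to 204127743, plus strand), a SOX factor with a coiled coil beside its HMG box, had the smallest of the 3 changes. The shControl libraries had 112.2, 106.4 and 109.5 CPM, and those of shCK5-22, all lower, had 99.54, 98.01 and 100.1 CPM. Group means were 109.4 ± 2.89 and 99.2 ± 1.10 CPM (SD, n = 3 each), 1.10-fold lower (log2 fold change -0.14, SE 0.0334, adjusted p = 0.00231). Without shCK5-22 replicate 1 the log2 fold change was -0.14 (adjusted p = 0.00175). ETNK2, an ethanolamine kinase gene that ends beyond SOX13 on the other strand (chromosome 1, 204131062 to 204152003), was lower at 7.97 ± 0.875 and 6.14 ± 0.354 CPM (log2 fold change -0.38, adjusted p = 0.00531).

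**Figure D2:**
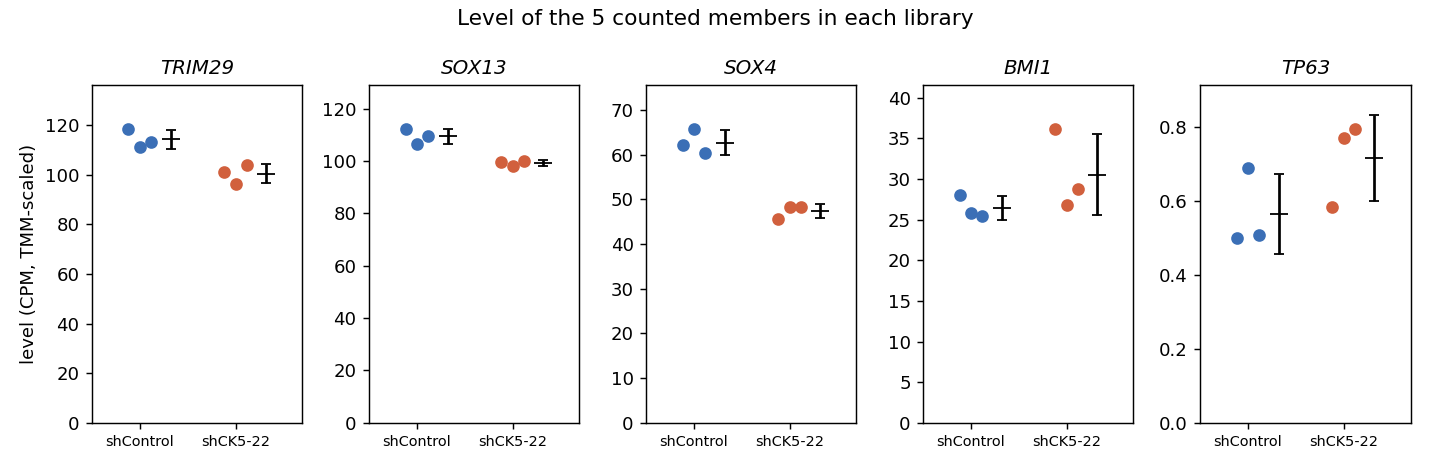
Level of the 5 counted members in each library (points, TMM-scaled CPM on linear axes that start at 0), with the mean and SD of each group of 3 as a bar beside the points. SOX4, TRIM29 and SOX13 libraries of shCK5-22 all lie below those of shControl, while the groups overlap for BMI1 and TP63.

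BMI1 (chromosome 10, 22321211 to 22331484, plus strand), the PRC1 subunit, had 28.09, 25.79 and 25.39 CPM in the shControl libraries. In the shCK5-22 libraries it had 36.15, 26.78 and 28.71 CPM. Replicate 1 of shCK5-22 was high, and the other libraries of both groups lay between 25.39 and 28.71 CPM. The means were 26.4 ± 1.46 and 30.6 ± 4.95 CPM (SD, n = 3 each), and the difference did not pass the test (log2 fold change 0.21, SE 0.108, adjusted p = 0.177). Without shCK5-22 replicate 1 the log2 fold change was 0.07 (adjusted p = 0.395), whereas without shCK5-22 replicate 2 it was 0.30 and passed (adjusted p = 0.00995). It also passed with no filter on low counts (adjusted p = 0.00134) and with the replicate block (0.00723), and lay between 0.00134 and 0.395 over the alternatives.

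The BMI1 count may not cover the whole gene. The readthrough gene COMMD3-BMI1 spans all but 1942 of its 4283 exonic bases, and whether reads from that shared part entered the BMI1 count is not known. COMMD3, a trafficking gene at the same locus with 12.5% of its exonic bases outside the readthrough gene, had 0 to 8 counts per library, and COMMD3-BMI1 had 0 to 7.

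TP63 (chromosome 3, 189631416 to 189897279, plus strand) had few counts, at rank 14487 by mean CPM among the 18008 genes tested. The shControl libraries held 24, 45 and 32 counts, and the shCK5-22 libraries 38, 46 and 42, where a count of 3 was taken as the floor. In TMM-scaled terms these were 0.499, 0.69 and 0.507 CPM and 0.583, 0.77 and 0.795 CPM. The groups overlapped, and the means of 0.566 ± 0.108 and 0.716 ± 0.116 CPM (SD, n = 3 each) gave a difference that missed the threshold (log2 fold change 0.32, SE 0.291, adjusted p = 0.434). Without shCK5-22 replicate 1 the log2 fold change was 0.46 (adjusted p = 0.3). Few fragments stand behind these counts, since 80.0% of all table values between 11 and 50 were even, as when both reads of a pair are counted.

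All 7454 exonic bases of TP63 lie outside the spans of other genes of the table in GENCODE. The overlap seen at the 4 SOX genes was thus not found at TP63, though GENCODE may not be the annotation used for counting. The ribosomal protein gene RPL26, with all 2513 exonic bases outside other genes' spans, still had only 6 counts in total over all libraries. Other ribosomal protein genes so placed had at least 17533 (RPS15A). Whether TP63 lost reads in counting was not tested. GENCODE gives TP63 12 protein-coding transcripts. Of these, 5 start between 189631427 and 189631516, at the promoter of the long TA forms, and 7 between 189789660 and 189789801, at the promoter of the deltaN forms that prevail in basal cells. The table has 1 row for all of them, so the forms cannot be told apart.

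**Figure D3:**
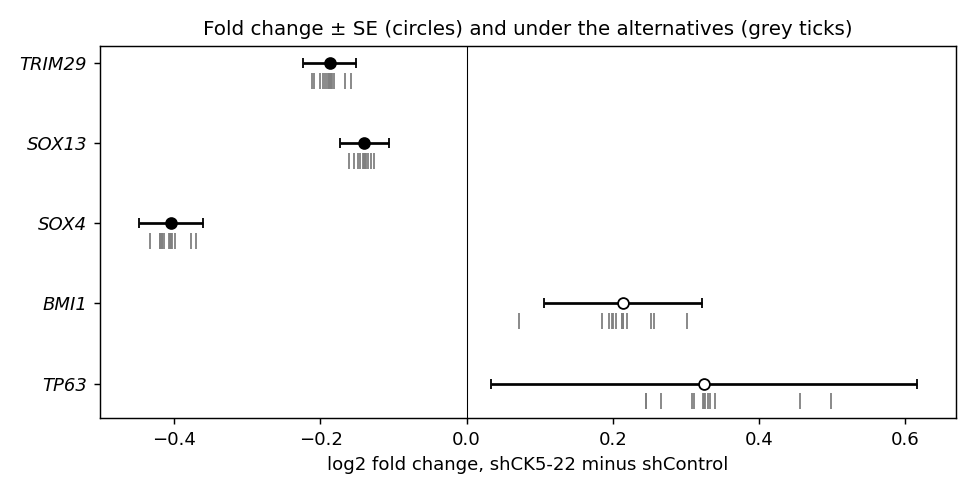
Log2 fold change of shCK5-22 against shControl for each counted member, with its SE (circles, filled where the adjusted p was below 0.05), and the same value under each alternative processing (grey ticks). SOX4, TRIM29 and SOX13 lie below 0 under every alternative run, and the BMI1 value nearest 0, 0.07, is the one without shCK5-22 replicate 1.

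Levels of different genes were compared per kilobase of exon outside other genes' spans, in CPM per kilobase. SOX13 had the highest level of the 5 members in shControl, 14.7 ± 0.389, followed by BMI1 at 13.6 ± 0.752, TRIM29 at 11.2 ± 0.37 and SOX4 at 10.7 ± 0.472 (SD, n = 3 each). SOX13 and BMI1 lay within their spread of each other, as did TRIM29 and SOX4. With all its exons as the length BMI1 came to 6.17 ± 0.341, below SOX4, so its place depends on which reads were counted. TP63 was lowest as counted, at 0.0759 ± 0.0145 in shControl and 0.096 ± 0.0156 in shCK5-22. In shCK5-22 the order was BMI1 at 15.7 ± 2.55, SOX13 at 13.4 ± 0.148, TRIM29 at 9.82 ± 0.375, SOX4 at 8.10 ± 0.264 and TP63. BMI1 and SOX13 lay within their spread of each other there too. With all its exons as the length BMI1 came to 7.13 ± 1.16 in shCK5-22, a mean below that of SOX4.

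TP73, a close relative of TP63, was lower in shCK5-22. The shControl libraries held 171, 275 and 247 counts, and the shCK5-22 libraries, all lower, 89, 86 and 98. Its level fell from 3.90 ± 0.33 to 1.55 ± 0.264 CPM (SD, n = 3 each), 2.53-fold (log2 fold change -1.34, SE 0.157, adjusted p = 8.51e-07). TP73 overlaps WRAP73 and TP73-AS1 in part, and 88.0% of its exonic bases lie outside them.

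Genes known as p63 targets in stratified epithelium were mostly lower, in a list chosen with earlier results of these data known. Of 22 in the list 20 were tested, 11 fell and 2 rose, where 16.8% of all genes tested fell and 17.4% rose. With the filter of at least 1 CPM in 3 libraries, 11 of 19 fell and 2 rose, beside 3051 and 2897 of 13636 genes. The median log2 fold change of the list was -0.23, beside -0.01 over all genes tested. KRT14, which pairs with KRT5 in keratin filaments, went from 21.6 ± 1.02 to 9.71 ± 1.29 CPM (log2 fold change -1.16, adjusted p = 7.53e-10). DLX3, a homeobox factor of epidermal differentiation, fell by 0.72, from 2.79 ± 0.111 to 1.69 ± 0.0556 CPM (adjusted p = 0.000854). COL17A1, a hemidesmosome collagen, fell by 0.69 and the Notch ligand gene JAG1 by 0.64. PERP, a desmosome protein gene under p63, fell from 215.5 ± 4.45 to 185.8 ± 5.55 CPM.

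The list did not move as one. The laminin gene LAMB3 rose by 0.26 on the log2 scale and the integrin gene ITGA6 by 0.22, while ITGA3, the most abundant member that did not pass, stood at 845 and 814 CPM. ZNF750, an epidermal differentiation factor, and SATB1, a chromatin organiser, were listed at 0, and ZNF750 lies wholly within TBCD.

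Genes listed as other basal mammary factors fell more often than they rose, though the list also holds genes of epithelium at large, such as GRHL2. This list too was chosen with earlier results of these data known. Of 15 listed 12 were tested, 6 fell and 2 rose, beside the same 16.8% and 17.4% over all genes, with a median log2 fold change of -0.26. With the filter of at least 1 CPM in 3 libraries, 6 of 12 fell and 2 rose, beside 3051 and 2897 of 13636 genes. VGLL1, a TEAD cofactor of basal-like cells, went from 108.3 ± 5.52 to 76.4 ± 0.548 CPM (log2 fold change -0.50, adjusted p = 1.12e-09). FOXC1, a forkhead factor that marks basal-like breast cancer, fell by 0.46 in log2 terms, from 55.1 ± 1.64 to 40.0 ± 1.63 CPM (adjusted p = 5.52e-08). KLF5 fell by 0.41 and GRHL2, an activator of epithelial genes, by 0.39. SNAI2, the basal repressor Slug, fell by 0.12, from 76.1 ± 0.947 to 70.0 ± 1.25 CPM (adjusted p = 0.0129). The 2 genes that rose were TFAP2A, from 230.5 to 265.1 CPM, and YBX1, a cold shock domain protein gene, from 941 to 1043 CPM. NFIB had 41.0 and 40.2 CPM and missed the threshold.

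PRC1 genes went both ways. All 18 in the list besides BMI1 were tested, 6 rose and 4 fell, where 34.2% of all genes changed, with a median log2 fold change of 0.03. The balance turned to 2 higher and 5 lower with library size only as the scaling. That scaling gave 2771 of 18008 genes higher and 3154 lower. With the filter of at least 1 CPM in 3 libraries the balance turned to 4 higher and 6 lower. Under that filter 2897 of 13636 genes rose and 3051 fell. The 10 changes became 5 when shControl replicate 1, 2 or 3 or shCK5-22 replicate 1 was left out. Those runs called 4910 to 6185 of 18382 to 18469 genes tested, against 6153 of 18008 with all libraries. PHC2 rose from 3.20 ± 0.26 to 4.34 ± 0.484 CPM (log2 fold change 0.45, adjusted p = 0.0105), and the chromobox gene CBX6 by 0.42, from 77.8 ± 1.45 to 104 ± 1.04 CPM (adjusted p = 3.13e-09). PHC1, a close relative of PHC2, fell by 0.33 from 19.1 ± 0.396 to 15.2 ± 1.02 CPM (adjusted p = 0.000439). KDM2B, of the variant PRC1 complexes, fell by 0.27, and PCGF2, the subunit that can take the place of BMI1, by 0.26.

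The INK4 genes that BMI1 is known to repress gave no values to test. CDKN2A was listed at 0 in all libraries although 88.9% of its exonic bases lie outside the span of CDKN2B-AS1. CDKN2B was listed at 0 too and lies wholly within that gene. Why CDKN2A and CDKN2B had no counts was not tested.

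**Figure D4:**
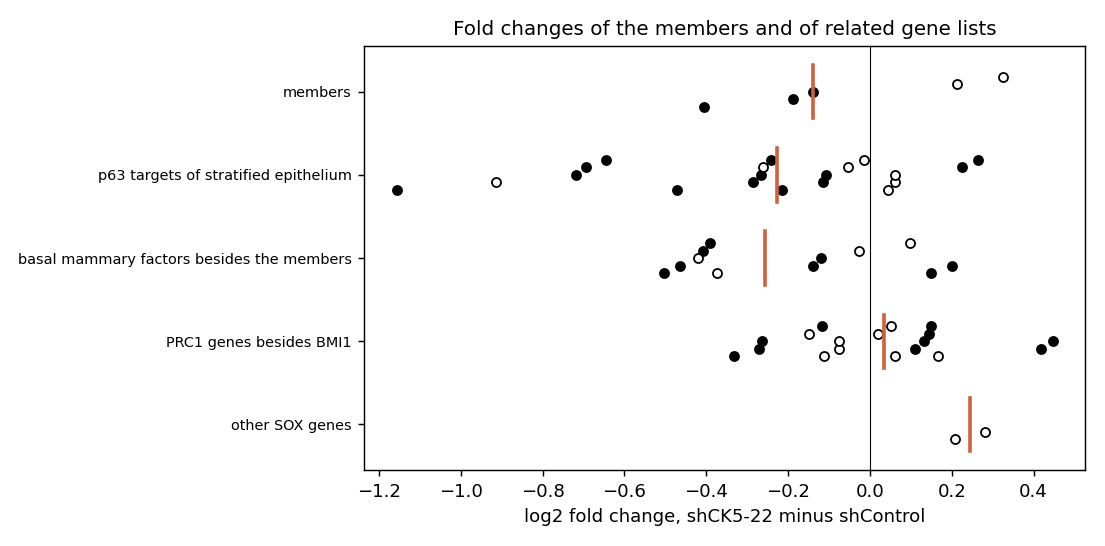
Log2 fold changes of shCK5-22 against shControl for the members and the related lists (points, filled where the adjusted p was below 0.05), with the median of each row as a bar. The lists of p63 targets and of basal mammary factors have medians of -0.23 and -0.26, while PRC1 genes spread to both sides of 0. The lists were chosen with earlier results of these data known.

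Of the other 13 SOX genes, only SOX6 and SOX18 had enough counts to be tested, and 0 passed in edgeR, 0 at an unadjusted p under 0.05 and 0 in DESeq2 and limma-voom. SOX18, a vascular factor, stood at 0.82 ± 0.135 and 0.946 ± 0.0572 CPM and SOX6 at 0.412 ± 0.0692 and 0.503 ± 0.213 CPM. Of the 13, 6 were listed at 0, among them SOX12, a relative of SOX4 that lies wholly within NRSN2-AS1.

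The genes whose levels followed a member most closely over the 6 libraries were found by Pearson correlation of log2 CPM among genes with a mean of at least 5 CPM, as a description. They were KDF1 (r = 0.999) and COPG1 (0.999) for SOX4, SURF4 (0.997) and TLE2 (0.995) for TRIM29, STN1 (0.998) and ACAA1 (0.997) for SOX13, and AK3 (0.997) and FOXO1 (0.991) for BMI1. All of these points share the same 6 libraries, and the genes were picked as the highest of all those searched, so high values come in part from the choice. SOX4, TRIM29 and SOX13 also carry the difference between the groups. For BMI1 the groups overlap, and shCK5-22 replicate 1 (36.15 CPM) stands above the other libraries. For TP63, on few counts, they were CCDC112 (0.991) and STK19 (0.988).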

How the data were processed

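Total RNA was purified on columns with DNase digestion and made into Illumina libraries, per the labels' protocols. The authors deposited 1 table of raw read counts, 1 column per library. Cutadapt, STAR, SAMtools, Cufflinks and the build GRCh38 are named in the submitters' processing notes. How reads were counted (tool, annotation, strand, overlapping genes) was not given in the sources used here. Of the 56505 rows, 27 had a date in place of a symbol and were left out (0.167% to 0.175% of a library's counts). Of the table values between 1 and 10, 89.7% were even.

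Groups were compared by edgeR 4.0.16 under R 4.3.3 (TMM, filterByExpr, robust quasi-likelihood F-test), two-sided and adjusted by Benjamini-Hochberg over 18008 genes with a threshold of 0.05. Each SE is the log2 fold change divided by the root of F. The fit was tested on simulated data. The floor of 3 counts (0.0459 to 0.063 CPM) covers counting error only. Gene positions, exons and overlaps come from GENCODE release 29, which may not be the annotation used for counting. The alternatives were other normalizations, filters and thresholds, DESeq2 1.42.0, limma-voom (limma 3.58.1), a replicate block and leaving out each library. The members and lists were chosen with earlier results of these data known. Named genes are all members, KRT5, genes at the members' loci, and for each list the 4 changed genes of at least 1 CPM with the largest change and the most abundant one that did not pass. PERP, ITGA6, LAMB3, SNAI2, TFAP2A, YBX1, PCGF2, ZNF750, SATB1, SOX6 and SOX12 are further examples chosen after their values were seen. Some genes are not reported here.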

Additional observations from a re-analysis of the deposited data

How the results depend on the processing

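SOX4, TRIM29 and SOX13 kept their direction and stayed below an adjusted p of 0.05 under all 15 alternatives, with log2 fold changes of -0.43 to -0.37, -0.21 to -0.16 and -0.16 to -0.13. TP63 did not pass under any of the 14 in which it was tested (0.25 to 0.50, adjusted p 0.3 to 0.641), and the filter of at least 1 CPM in 3 libraries removed it. BMI1 passed with no filter on low counts (log2 fold change 0.21), with the replicate block (0.20) and without shCK5-22 replicate 2, with a range of 0.072 to 0.30 when single libraries were left out. The cause was not tested. At a threshold of 0.01 the count of changed PRC1 genes was 4 of 18, where 4382 of all 18008 genes changed. It was 5 to 10 when single libraries were left out, where 4910 to 6185 of all genes changed. The correlation of deviations of same-numbered libraries was 0.02, 0.05 and -0.01, and not every library correlated best with its own number. With 3 libraries per group this cannot settle whether replicate numbers pair the libraries. With the replicate block 6743 genes changed, against 6153 without it, and SOX4 (-0.40), TRIM29 (-0.19), SOX13 (-0.14) and TP63 (0.34) stayed on the same side of the threshold. The TP63 test rests on few counts, 24 to 46 per library. SOX2, SOX9, SOX10 and SOX15, which lie within other genes, gave no counts to test. How overlapping genes were counted is not known.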
